A study of Mus musculus with 5 samples.

Results

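The genes described here are 10 transcripts of T lymphocytes, chosen by symbol from the 22815 symbols of the deposited expression table: the CD3 subunits Cd3e, Cd3d and Cd3g, the coreceptors Cd4, Cd8a and Cd8b1, the kinase Lck, the transcription factor Tcf7, the cytokine receptor Il7r and the surface glycoprotein Thy1. All 10 symbols were found, each with a value in all 5 libraries. The libraries came from peritoneal lavage cells of 8-week-old mice, with 1000000 cells lysed per library. They fell into 3 groups: wild-type C57BL/6 mice given PBS (WT PBS, n = 1), wild-type C57BL/6 mice given pristane (WT pristane, n = 2), and pristane-treated mice with the label Irf8KO, which names a knockout of Irf8 (Irf8KO pristane, n = 2). Pristane is a hydrocarbon oil that sets off sterile inflammation in the mouse peritoneum. The labels used here do not state the dose, the time after injection, the Irf8 allele or whether each lavage was a separate animal. The p-values therefore reflect spread from library to library, which may be technical. The series has no group labelled Irf8KO and given PBS, so every value for the labelled Irf8KO libraries is one after pristane.

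The T cell receptor recognises peptides held by MHC molecules but has almost no cytoplasmic tail of its own, so the CD3 chains that surround it carry the signal into the cell. CD4 binds MHC class II and CD8 binds MHC class I, and both bring the kinase Lck to the receptor, where it phosphorylates the CD3 tails. Lck is followed by Zap70, Lat and Lcp2, which spread the signal. Tcf7 (TCF-1) sets up T cell identity and marks naive and memory-like T cells, and Il7r takes up the survival signal of interleukin-7. Several of these genes are also known outside the classical T cell: Cd4 and Cd8a in subsets of mouse dendritic cells, Lck and Thy1 in natural killer and other innate lymphoid cells, Thy1 in fibroblasts, and Il7r in innate lymphoid cells. Cd3 subunits and Cd8b1 are the most restricted to T cells among the 10.

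In RefSeq (GRCm38.p6) Cd3g, Cd3d and Cd3e follow each other on chromosome 9, with no other gene starting between them, and Cd8b1 and Cd8a are likewise neighbours on chromosome 6. Cd3g and Cd3d are transcribed away from each other from start sites 1355 bases apart. The promoters of the CD3 genes are shown because these neighbouring genes differed by nearly the same factor between the pristane groups, and that of Cd8a because its highest FPKM was 42.5 times its lowest, the widest ratio of the 10. Each window runs from 250 bases before to 50 bases after the start site, 5′ to 3′ on the gene's own strand, at chr9:44980382-44980681 (minus strand) for Cd3g, chr9:44981536-44981835 (plus strand) for Cd3d, chr9:45009562-45009861 (minus strand) for Cd3e and chr6:71373177-71373476 (plus strand) for Cd8a. Capitals mark the letters of 5 motifs of T lineage factors, searched on both strands. The motif searched for TCF/LEF factors was CTTTG. For RUNX factors, which include the CD8 regulator Runx3, it was TGTGGT. ETS factors were searched as AGGAAG. The E-box of the E proteins E2A and HEB was written CAGNTG. For GATA factors such as Gata3 the letters were AGATAA. No base lay in a match to more than 1 motif.
Cd3g: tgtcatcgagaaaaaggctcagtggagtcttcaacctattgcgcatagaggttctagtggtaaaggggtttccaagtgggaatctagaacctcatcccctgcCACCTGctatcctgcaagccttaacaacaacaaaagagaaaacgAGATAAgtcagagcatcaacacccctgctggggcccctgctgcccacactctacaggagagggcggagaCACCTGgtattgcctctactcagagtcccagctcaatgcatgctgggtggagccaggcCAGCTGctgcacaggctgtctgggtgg
Cd3d: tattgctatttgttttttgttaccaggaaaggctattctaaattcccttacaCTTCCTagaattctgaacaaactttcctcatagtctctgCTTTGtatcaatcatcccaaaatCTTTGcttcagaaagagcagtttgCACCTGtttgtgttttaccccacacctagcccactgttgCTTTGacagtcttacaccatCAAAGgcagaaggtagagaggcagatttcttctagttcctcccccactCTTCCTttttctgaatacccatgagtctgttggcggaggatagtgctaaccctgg
Cd3e: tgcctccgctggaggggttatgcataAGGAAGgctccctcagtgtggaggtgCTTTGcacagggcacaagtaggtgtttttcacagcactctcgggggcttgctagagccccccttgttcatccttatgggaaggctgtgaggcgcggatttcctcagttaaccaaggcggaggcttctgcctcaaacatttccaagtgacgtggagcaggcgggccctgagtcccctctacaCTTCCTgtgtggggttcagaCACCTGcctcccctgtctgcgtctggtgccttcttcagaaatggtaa
Cd8a: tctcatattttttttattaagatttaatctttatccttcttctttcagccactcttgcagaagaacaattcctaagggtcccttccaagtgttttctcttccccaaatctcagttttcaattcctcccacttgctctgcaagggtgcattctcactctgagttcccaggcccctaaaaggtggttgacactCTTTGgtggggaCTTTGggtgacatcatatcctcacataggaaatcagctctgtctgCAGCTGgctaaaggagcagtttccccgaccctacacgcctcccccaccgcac

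RefSeq promoters were matched for 7 of the 10 genes, 9 windows in all since Lck and Tcf7 have a pair each. The E-box was present in 9 of 9 windows, against 51.4% of the 32851 promoters of the same length searched. The TCF/LEF letters stood in 4 of 9 windows (53.9% of all promoters), those of ETS in 5 (35.4%), RUNX in 2 (16.8%) and GATA in 1 (11.2%). Short motifs of this kind are common, and a match describes the letters only. The 4 CTTTG matches in Cd3d and the 2 in Cd8a can be read in the capitals above, while Cd3g had none and carried the only AGATAA match of the 9 windows. Lck is known to use a distal and a proximal promoter, and values per gene do not show from which start a transcript came.

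Values are FPKM, fragments scaled by transcript length and library size, which allow levels of different genes to be set side by side. Between 9105 and 9849 genes reached 1 FPKM in a library. The lowest values of genes with a single annotated transcript moved in steps that corresponded to about 2259000 to 5058000 fragments per library, least in WT PBS and most in Irf8KO pristane replicate 1. Irf8 RNA was not lower in the libraries labelled Irf8KO, at 121 and 59.4 FPKM against 63.3 and 48.7 FPKM in WT pristane, and a value per gene does not show a deleted exon. The Y-linked Eif2s3y was listed at 0 in WT PBS and WT pristane replicate 2 and stood at 12.9 to 25.6 FPKM in the other 3 libraries. Xist, an RNA of female cells, stood at 43.5 FPKM in WT PBS and 8.81 FPKM in WT pristane replicate 2. It was at 0 to 0.015 FPKM in the other 3 libraries. Sex-linked RNA thus differed between groups and within WT pristane, and the part of sex in the comparisons was not tested.

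The CD3 subunits were seen in every library. Cd3e, which pairs with each of the other subunits, stood at 25.5 FPKM in WT PBS, 25.6 and 19.9 FPKM in WT pristane and 12.2 and 8.50 FPKM in Irf8KO pristane. The WT PBS value lay 0.16 FPKM from the higher WT pristane library, and both Irf8KO libraries lay below all 3 wild-type ones. Cd3g, partner of Cd3e in the receptor, stood at 36.8 FPKM in WT PBS, 26.3 and 22.0 FPKM in WT pristane and 12.1 and 9.14 FPKM in Irf8KO pristane. Cd3d, the other partner, stood at 25.8 FPKM, then 16.3 and 9.62 FPKM, then 5.08 to 6.56 FPKM in the same order of groups. For both of these the 3 groups did not overlap and followed one order, WT PBS, WT pristane, Irf8KO pristane. Cd3g was above Cd3d in all 5 libraries. In bulk RNA, fewer T cells and less of these transcripts per T cell cannot be told apart, and this holds for every level below.

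**Figure D1:**
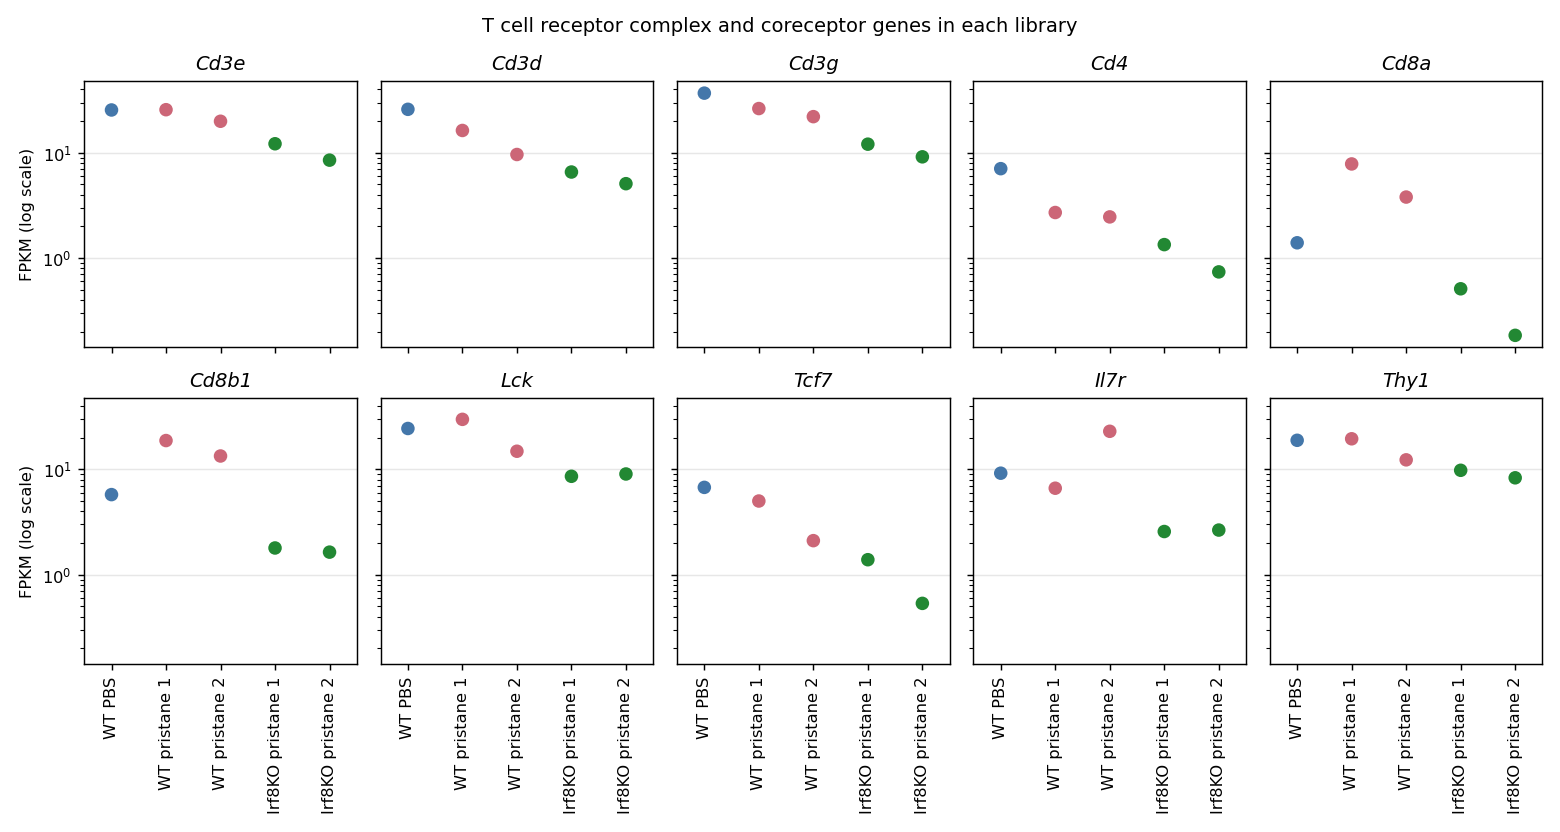
FPKM of each of the 10 genes (vertical axis, log scale) in each library (horizontal axis). Each point is 1 library, blue for WT PBS, red for WT pristane and green for Irf8KO pristane. In all 10 panels both green points lie below both red points and below the blue point, while the red points lie above the blue one for Cd8a and Cd8b1 and below it for Cd3d, Cd3g, Cd4 and Tcf7.

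The coreceptors stood in different orders of groups. Cd4, the coreceptor of helper and regulatory T cells, stood at 7.06 FPKM in WT PBS, 2.70 and 2.46 FPKM in WT pristane and 1.34 and 0.737 FPKM in Irf8KO pristane. It was highest in the resting cavity and lowest in the labelled Irf8KO libraries. Cd8b1, the beta chain of the CD8 heterodimer of cytotoxic T cells, stood at 5.77 FPKM in WT PBS, 18.8 and 13.4 FPKM in WT pristane and 1.79 and 1.64 FPKM in Irf8KO pristane. Here WT pristane was the highest group and WT PBS lay between the pristane groups. Cd8a, the alpha chain, stood at 1.39 FPKM in WT PBS, 7.82 and 3.79 FPKM in WT pristane and 0.509 and 0.184 FPKM in Irf8KO pristane, the same order of groups as its partner. Cd8b1 was above Cd8a in every library, from 2.41 to 8.90 times. The low end is close to the limit of detection: on its longest coding transcript (GENCODE M21) Cd8a would rest on about 8.1 and 2.0 fragments in the Irf8KO libraries against 101 and 33.7 in WT pristane, and Cd8b1 on 13.5 and 8.3 against 115 and 56.6. In Irf8KO pristane replicate 2 Cd4 would rest on about 7.8 fragments and Tcf7 on 4.5.

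Lck, the kinase that docks to both coreceptors, stood at 24.5 FPKM in WT PBS, 29.9 and 14.9 FPKM in WT pristane and 8.61 and 9.05 FPKM in Irf8KO pristane. The WT PBS value lay between the WT pristane libraries. Thy1 stood at 18.9 FPKM in WT PBS, 19.6 and 12.3 FPKM in WT pristane and 9.82 and 8.33 FPKM in Irf8KO pristane, the narrowest range of the 10 genes on the log2 scale. Tcf7 was the scarcest besides the coreceptors, with 6.75 FPKM in WT PBS, 5.01 and 2.11 FPKM in WT pristane and 1.39 and 0.534 FPKM in Irf8KO pristane. The lower WT pristane library was nearer to the Irf8KO libraries than to its own replicate in FPKM. Il7r stood at 9.21 FPKM in WT PBS, 6.63 and 23.0 FPKM in WT pristane and 2.57 and 2.65 FPKM in Irf8KO pristane. WT pristane replicate 2 stood apart for Il7r, above every other library, while that replicate was below replicate 1 for the other 9 genes.

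Irf8KO pristane against WT pristane compared levels after the oil with and without the labelled loss of Irf8. All 10 genes were lower, with no overlap between the groups. None passed an adjusted p of 0.05 over the 11117 genes tested by limma on log2(FPKM + 1), where 3 genes in all did (0.027%). At an unadjusted p under 0.05 there were 8 of 10, all lower, against 10.1% of all genes tested, and non-overlap in the lower direction was seen in 27.1% of all genes. The median log2 change of the 10 was −1.15, against −0.002 over all genes. All 10 had passed the filter of at least 1 FPKM in at least 1 library, each already through the WT PBS library.

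The CD8 chains had the largest differences in this comparison. Cd8b1 was lower by a log2 change of −2.64 ± 0.25 (SE, 95% interval −3.33 to −1.95, adjusted p = 0.0562, limma), which is 9.39 times between the mean FPKM of the groups. Cd8a had a log2 change of −2.28 ± 0.38 (SE, 95% interval −3.34 to −1.23, adjusted p = 0.109), and its mean FPKM differed by 16.7 times. The added 1 FPKM shrinks the change of so low a gene, and with 0.1 in its place Cd8a had −3.74. Both passed in a fit of the 4 pristane libraries alone (adjusted p = 0.00669 for Cd8b1 and 0.032 for Cd8a) and with the filter at 2 libraries (0.00719 and 0.0316), settings under which 431 of 10431 and 457 of 9986 genes passed. In each fit that left out 1 pristane library 0 genes of the whole table passed (limma, 1005 to 2529 at an unadjusted p under 0.05), and the log2 change ran from −2.87 to −2.41 for Cd8b1 and from −2.72 to −1.84 for Cd8a. Cd4 was lower by −0.83 ± 0.24 (SE, adjusted p = 0.192), 2.48 times between mean FPKM.

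The CD3 subunits differed by nearly the same step from each other. The log2 change was −1.12 ± 0.22 (SE, adjusted p = 0.129) for Cd3g, −1.08 ± 0.26 (SE, adjusted p = 0.157) for Cd3e and −0.999 ± 0.32 (SE, adjusted p = 0.209) for Cd3d, and mean FPKM differed by 2.20 to 2.28 times. Their 95% intervals together ran from −1.88 to −0.11. Lck was lower by −1.17 ± 0.37 (SE, adjusted p = 0.209), and Tcf7 by −1.18 ± 0.45 (SE, adjusted p = 0.257). Thy1 had the smallest difference, −0.72 ± 0.28 (SE, adjusted p = 0.266), with an interval from −1.51 to 0.06. Il7r had −1.91 ± 0.61 (SE, adjusted p = 0.212), and this rested much on WT pristane replicate 2: without it the log2 change was −1.08. The sign was negative for each of the 10 genes under each of the 12 alternative fits.

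**Figure D2:**
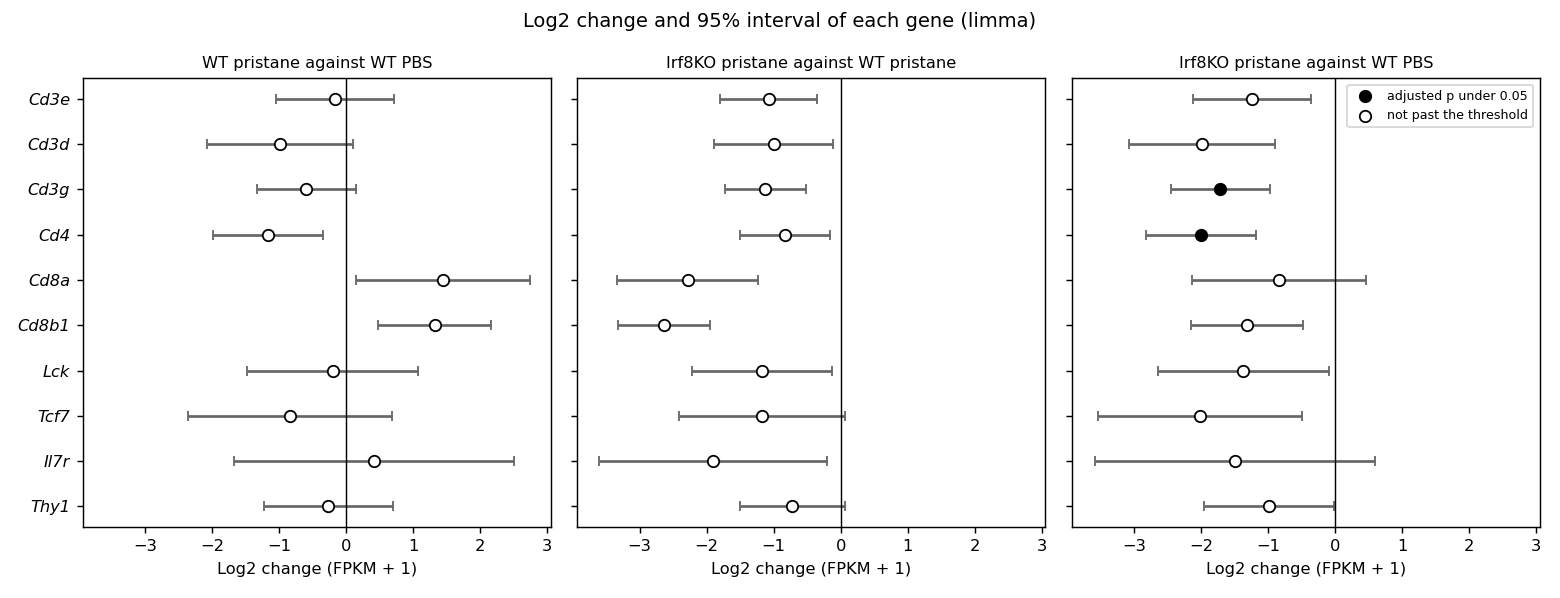
Log2 change of each gene (horizontal axis, difference of group means of log2(FPKM + 1)) with its 95% interval from limma, in the 3 comparisons. Filled points passed an adjusted p of 0.05, which only Cd3g and Cd4 did, in Irf8KO pristane against WT PBS. In the middle panel all 10 points lie left of 0, with Cd8b1 and Cd8a farthest.

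The effect of the oil in normal mice was read from WT pristane against WT PBS. PBS stands on 1 library, whose spread was taken from that of the pristane pairs. None of the 10 genes passed the threshold, which 10.6% of all genes tested did. At an unadjusted p under 0.05 there were 3: Cd8b1 and Cd8a, higher (15.9% of all genes), and Cd4, lower (17.8%). Cd8b1 had a log2 change of 1.32 ± 0.30 (SE, 95% interval 0.48 to 2.16, adjusted p = 0.0708) and Cd8a 1.44 ± 0.46 (SE, adjusted p = 0.124), which is 2.79 and 4.17 times in mean FPKM. With the filter at 2 libraries Cd8b1 passed (adjusted p = 0.0451), as did 1494 of the 9986 genes then tested. Cd4 had −1.17 ± 0.30 (SE, 95% interval −1.99 to −0.35, adjusted p = 0.0834), 2.74 times lower in mean FPKM. The groups did not overlap for these 3 nor for Cd3d (−0.99 ± 0.39 SE), Cd3g (−0.59 ± 0.27 SE) and Tcf7 (−0.84 ± 0.55 SE), all lower. Non-overlap is common where 1 group is a single library, seen for 44.5% of all genes in the lower direction and 37.3% in the higher.

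For the other 4 genes the WT PBS library lay between the WT pristane libraries. The log2 change was −0.17 for Cd3e (95% interval −1.05 to 0.71), −0.20 for Lck (−1.48 to 1.07), −0.27 for Thy1 (−1.23 to 0.70) and 0.41 for Il7r (−1.68 to 2.50). Each of these intervals reaches beyond a log2 change of −1, and those of Lck and Il7r beyond 1 as well. Without WT pristane replicate 2 the sign turned in all 4 of them. The median log2 change of the 10 genes was −0.23, against −0.07 over all genes tested.

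Irf8KO pristane against WT PBS, which shares its groups with the other comparisons, gave 10 lower genes of 10 with no overlap, as in 46% of all genes. Cd3g fell by 1.72 on the log2 scale (± 0.27 SE, adjusted p = 0.0445, limma) and Cd4 by 2.00 (± 0.30 SE, adjusted p = 0.043). Of all genes tested 8.54% passed, and 4.72% did so as lower. The Cd3g call was lost in 8 of 11 alternative fits and the Cd4 call in 7, with adjusted p up to 0.195 and 0.188. Among these were the fits that left out 1 pristane library, in which 0 genes of the whole table passed (limma, 2242 to 4013 at an unadjusted p under 0.05). Mean FPKM was 3.47 times lower for Cd3g and 6.80 times lower for Cd4. Tcf7 had the largest log2 change, −2.02 ± 0.55 (SE, adjusted p = 0.0947), and Cd3d had −1.99 ± 0.39 (SE, adjusted p = 0.0584). The CD8 chains had −1.32 ± 0.30 (SE, adjusted p = 0.0749) for Cd8b1 and −0.84 ± 0.46 (SE, adjusted p = 0.28) for Cd8a. With a pseudocount of 0.1 Cd8a had −1.84, and its mean FPKM was 4.02 times lower. The median of the 10 was −1.44, against −0.05 over all genes.

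Set against the CD3 genes of the same library, the CD8 chains and Cd4 were ordered unlike each other. The mean of Cd3e, Cd3d and Cd3g was 29.4 FPKM in WT PBS, 22.7 and 17.2 FPKM in WT pristane and 10.3 and 7.57 FPKM in Irf8KO pristane. Cd8b1 stood at 19.6% of that mean in WT PBS, 82.8% and 78.1% in WT pristane, and 17.5% and 21.6% in Irf8KO pristane. The labelled Irf8KO libraries thus lay on either side of WT PBS for this share, and WT pristane lay far above both. Cd8a followed, with 4.74% in WT PBS, 34.4% and 22.1% in WT pristane, and 4.97% and 2.43% in Irf8KO pristane. Cd4 stood at 24.0% in WT PBS, 11.9% and 14.3% in WT pristane, and 13.1% and 9.73% in Irf8KO pristane, so here all 4 pristane libraries lay below WT PBS and the pristane groups overlapped. With 2 libraries a group, an exact 2-sided permutation test cannot go below 0.333, so these shares are descriptions.

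The ratio of Cd8b1 to Cd4 was 0.817 in WT PBS, 6.96 and 5.46 in WT pristane and 1.34 and 2.22 in Irf8KO pristane. Cd4 exceeded Cd8b1 in the WT PBS library only. Lck lay between 83.4% and 132% of the CD3 mean, with the groups mixed, and Thy1 between 64.4% and 110.0%, with both Irf8KO libraries above the 3 wild-type ones. Tcf7 stood at 23.0% in WT PBS and 22.0% in WT pristane replicate 1, and at 7.05% to 13.5% in the other 3. Il7r lay between 25.1% and 35.0% in 4 libraries and at 134% in WT pristane replicate 2.

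**Figure D3:**
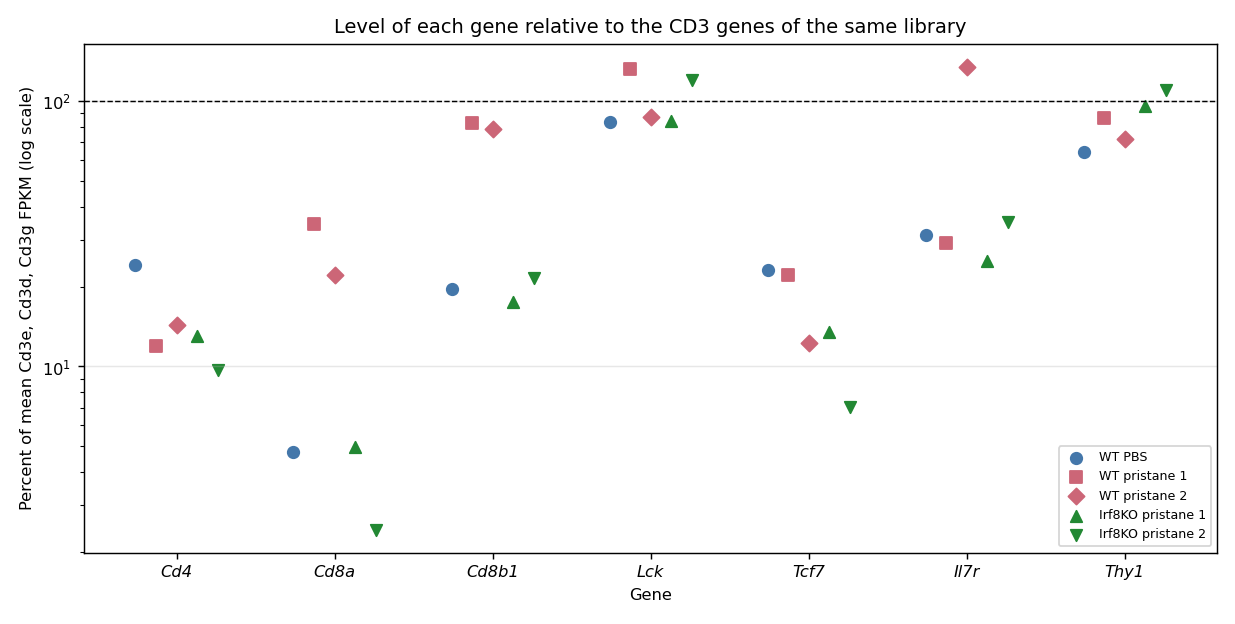
FPKM of 7 genes as a percent of the mean FPKM of Cd3e, Cd3d and Cd3g in the same library (vertical axis, log scale), by gene. Each symbol is 1 library and the dashed line marks equality with the CD3 mean. For Cd8b1 the WT pristane libraries (78.1% and 82.8%) stand above WT PBS and Irf8KO pristane (17.5% to 21.6%), and for Il7r WT pristane replicate 2 stands alone at 134%.

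Other genes of the T cell receptor pathway were read from lists that were chosen with earlier results of these data known. Cd247, the zeta chain that completes the receptor complex, stood at 13.5 FPKM in WT PBS, 10.4 and 8.21 FPKM in WT pristane and 5.09 and 1.69 FPKM in Irf8KO pristane. It kept the order of Cd3g and Cd3d, with a log2 change of −1.34 ± 0.47 (SE, adjusted p = 0.235) between the pristane groups. The constant regions of the antigen-binding chains were not analysed here. Of 18 genes of proximal receptor signalling, 0 passed the threshold between the pristane groups, with a median of −0.81. At an unadjusted p under 0.05 (limma) 7 were lower, where 10.1% of all genes were, and 1 was higher. Zap70, chosen after its values were seen as the kinase that docks to phosphorylated CD3 chains, stood at 6.39 FPKM in WT PBS, 6.29 and 4.51 FPKM in WT pristane and 2.03 and 1.99 FPKM in Irf8KO pristane, with a log2 change of −1.08 (adjusted p = 0.143) between the pristane groups. Trat1, an adaptor that stabilises the receptor at the surface, stood at 4.47 FPKM in WT PBS and 1.20 and 1.78 FPKM in WT pristane and was listed at 0 in both Irf8KO libraries. Ptpn22, a phosphatase that restrains Lck, had −1.62 ± 0.47 (SE, adjusted p = 0.191). Lcp2, an adaptor shared with myeloid cells and platelets, stood in the opposite order, at 22.9 FPKM in WT PBS, 43.4 and 44.0 FPKM in WT pristane and 61.6 FPKM in both Irf8KO libraries, and Vav1, the exchange factor used by most blood cells, ranged only from 20.7 to 35.1 FPKM.

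Against WT PBS, 1 of the 18 proximal signalling genes passed in WT pristane, as lower, where 607 of all 11117 genes tested passed as lower. In Irf8KO pristane 3 passed as lower and 1 as higher, where 8.54% of all genes passed in either direction and 4.72% as lower. The one lower in WT pristane was Grap2, an adaptor that links Lat to Lcp2, which fell by 1.38 on the log2 scale (adjusted p = 0.0412). In Irf8KO pristane Grap2 fell by 1.75 (adjusted p = 0.0359), Trat1 also passed as lower, and Lcp2 rose by 1.39 (adjusted p = 0.0368).

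Of 15 surface and costimulatory genes, 0 passed between the pristane groups, with a median of −0.96. At an unadjusted p under 0.05 (limma) 9 were lower, where 10.1% of all genes were, and none was higher. Tigit, an inhibitory receptor of activated T and natural killer cells, had the largest of these, with 19.2 and 26.6 FPKM in WT pristane against 6.75 and 5.20 FPKM in Irf8KO pristane (log2 change −1.77 ± 0.26 SE, adjusted p = 0.0964) and 8.07 FPKM in WT PBS. Its order of groups was that of the CD8 genes, with WT pristane on top. Tnfrsf18, the costimulatory receptor GITR, had −1.09 ± 0.33 (SE, adjusted p = 0.197). Against WT PBS, Cd2, an adhesion receptor of T, natural killer and mouse B cells, fell by 4.13 in WT pristane (adjusted p = 0.0291) and by 4.36 in Irf8KO pristane (adjusted p = 0.0318), from 247 FPKM to between 9.04 and 17.2 FPKM. Ctla4, an inhibitory receptor known from regulatory T cells, fell by 2.81 in Irf8KO pristane (adjusted p = 0.043). Foxp3, the factor of regulatory T cells, stood at only 0.269 to 0.795 FPKM, with the groups mixed, and was below the filter.

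Of 13 tested transcription factors of the T lineage, out of 14 listed, 0 passed between the pristane groups, and the median was −0.28. At an unadjusted p under 0.05 (limma) 2 were lower, where 10.1% of all genes were. These were Runx1 (log2 change −0.64 ± 0.21 SE, adjusted p = 0.212) and, named after its values were seen, Runx3, a factor of CD8 T cells and natural killer cells (−1.14 ± 0.33 SE, adjusted p = 0.189). Against WT PBS, Ets1, a factor of resting lymphocytes, fell by 3.16 in WT pristane (adjusted p = 0.0283) and 3.40 in Irf8KO pristane (adjusted p = 0.0318), and Ikzf3, a relative of Ikaros used by B and T cells, by 3.14 (adjusted p = 0.0254) and 3.56 (adjusted p = 0.0274). Id3, an inhibitor of E proteins, stood at 60.6 FPKM in WT PBS and 7.32 to 28.3 FPKM after pristane, and Runx1 at 8.87 and 3.77 to 7.50 FPKM. The 8 B cell markers, among them Cd79a and Cd79b, summed to 2515 FPKM in WT PBS. Their sum was 41.5 and 13.4 FPKM in WT pristane and 189 and 101 FPKM in Irf8KO pristane. In WT pristane against WT PBS 8 of 8 passed as lower, where 607 of all 11117 genes tested did. Cd2, Ets1 and Ikzf3 are known in B cells as well, and the part of B cells in their values was not tested. Nor was it tested for Ctla4.

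Of 7 genes of naive and recirculating lymphocytes, 0 passed between the pristane groups, none had an unadjusted p under 0.05 (limma), and the median was −0.03. Ccr7, the lymph node homing receptor, stood at 123 FPKM in WT PBS, 44.3 and 15.8 FPKM in WT pristane and 36.7 and 13.5 FPKM in Irf8KO pristane, with both pristane groups spread over the same range. Ltb, lymphotoxin beta, stood at 126 FPKM, then 48.4 and 11.0 FPKM, then 53.2 and 31.2 FPKM. Dapl1, a gene of naive T cells, stood at 9.81 FPKM in WT PBS and was listed at 0 in 3 of the 4 pristane libraries. Unlike for the CD3 genes, the pristane groups overlapped for Ccr7 and for Ltb. The sum of the B cell markers was higher in both Irf8KO libraries than in both WT pristane libraries. What B cells contributed to the Ccr7 and Ltb values was not tested.

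Among 10 genes of interleukin-7 and common gamma chain signalling, 0 passed between the pristane groups, and the median was 0.09. At an unadjusted p under 0.05 (limma) 1 was lower, near the 10.1% seen over all genes. That one, named after its values were seen, was Il2ra, the interleukin-2 receptor alpha chain (−0.73 ± 0.19 SE, adjusted p = 0.174). Il2rg, the common gamma chain that pairs with Il7r and is used by many leukocytes, stood at 130.0 FPKM in WT PBS, 195 and 91.8 FPKM in WT pristane and 160 and 126 FPKM in Irf8KO pristane, and the kinase Jak1 at 36.6 to 61.2 FPKM. Neither followed Il7r, and neither was highest in WT pristane replicate 2. Crlf2, the thymic stromal lymphopoietin receptor, which also pairs with Il7r, rose by 1.44 in Irf8KO pristane against WT PBS (adjusted p = 0.0415). It stood at 12.2 FPKM in WT PBS, 30.1 and 25.5 FPKM in WT pristane and 35.2 and 34.1 FPKM in Irf8KO pristane, so it was high where Il7r was lowest.

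Likeness to the CD3 genes was measured over the 5 libraries as the root-mean-square difference between a gene's log2(FPKM + 1) profile and the mean CD3 profile, each centred on its own mean. Among the 9466 genes whose mean log2 value reached 1, the median was 0.78, and 46 genes lay under 0.25. The 8 nearest were Kansl1, a chromatin complex subunit (0.13), Psme3, a proteasome activator (0.13), Smek1, a phosphatase regulator (0.14), Pip4k2a, a lipid kinase (0.14), Nfatc2, the calcium-dependent factor of activated T cells (0.15), Lmo2, an adaptor of blood cell transcription (0.16), Kit, the stem cell factor receptor (0.16), and Nup153, a nuclear pore protein (0.16). Of the 8, Nfatc2 is the one known for a T cell role, and the others are used in many or in other cell types. Cd6 and Zap70, T cell genes named after their values were seen, ranked 11 and 15. Among the members, Cd4 (0.24), Tcf7 (0.23), Lck (0.26) and Thy1 (0.26) lay near the CD3 profile, with 35 to 59 genes nearer. This scale shrinks the changes of low genes such as Cd4 and Tcf7. Their highest FPKM was 9.57 and 12.7 times their lowest, against 3.02 to 5.09 times for the CD3 genes. Cd8a (0.80), Il7r (0.80) and Cd8b1 (0.84) lay far from it, with 4974 to 5542 genes nearer.

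Markers of other cell types were summed in each library as a check on which cells could share these transcripts. The 9 natural killer cell markers, which include the receptor Ncr1 and the granzyme Gzma, summed to 6.54 FPKM in WT PBS, 90.1 and 70.4 FPKM in WT pristane and 35.3 and 25.0 FPKM in Irf8KO pristane. Klre1 and Klra8 were listed at 0 in WT PBS. The tested genes were 8 lower of 8 between the pristane groups (median −1.03), and 0 passed. At an unadjusted p under 0.05 (limma) 5 were lower, where 10.1% of all genes were. The natural killer sum was lower in Irf8KO pristane, as were Lck and Thy1, whereas it was lowest in WT PBS and Lck and Thy1 were not. The part of natural killer cells in the Lck and Thy1 values was not tested. The 6 markers of type 1 dendritic cells, which carry Cd8a but not Cd8b1, summed to 6.68 FPKM, 12.1 and 9.58 FPKM, and 1.78 and 2.20 FPKM in the same order of groups. Of these markers Xcr1 stood at no more than 1.21 FPKM and Clec9a at no more than 1.12 FPKM, and each was listed at 0 in 1 Irf8KO library. Batf3 stood at 5.17 FPKM in WT PBS, 4.98 and 4.12 FPKM in WT pristane and 0.469 and 0 FPKM in Irf8KO pristane. Itgae stood at 0.111 FPKM, then 3.02 and 2.11 FPKM, then 0.302 and 0.509 FPKM. Cadm1 stayed at or below 0.313 FPKM and Tlr3 at or below 1.85 FPKM. The part of type 1 dendritic cells in the Cd8a values was not tested.

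Plasmacytoid dendritic cells, which can carry Cd4, were read from 7 markers that summed to 684 FPKM in WT PBS, 405 and 265 FPKM in WT pristane and 122 and 90.7 FPKM in Irf8KO pristane. Most of the sum was Bst2, an interferon-induced gene, and Ly6d, which B cells share. The other markers did not share 1 order: Siglech stood at 0.378 FPKM in WT PBS, 4.12 and 1.35 FPKM in WT pristane and 0.171 and 0.123 FPKM in Irf8KO pristane. That was the order of groups of Cd8a and Cd8b1. Spib and Tcf4, which B cells also use, were highest in WT PBS, at 48.0 and 10.7 FPKM, and so was Ccr9, at 1.86 FPKM. Cox6a2 was listed at 0 in 4 libraries. The part of plasmacytoid dendritic cells in the Cd4, Cd8a and Cd8b1 values was not tested.

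For innate lymphoid cells the 8 markers summed to 8.13 FPKM in WT PBS, 23.9 and 25.8 FPKM in WT pristane and 12.1 and 6.43 FPKM in Irf8KO pristane. Areg made up most of it in WT pristane, with 18.7 and 20.7 FPKM. Il13 was listed at 0 in all 5 libraries and Il17rb in 3. The WT pristane libraries were close to each other in this sum, while Il7r stood at 6.63 and 23.0 FPKM in them. The inflammatory monocyte list, with Ly6c2 and Ccr2, did separate them, at 992 and 1694 FPKM, and its part in the Il7r value was not tested. The 3 analysed markers of gamma delta T cells summed to 0.91 to 2.86 FPKM. The fibroblast and mesothelium list was listed at 0 throughout in WT PBS, where Thy1 stood at 18.9 FPKM, and summed to 24.4 to 73.1 FPKM after pristane, where its part in the Thy1 values was not tested.

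The neutrophil sum was lowest in WT PBS and highest in Irf8KO pristane, the reverse of the order of Cd3d, Cd3g, Cd4 and Tcf7. Most of it was S100a8 and S100a9. Singly, S100a8, Cxcr2, Retnlg and Mmp8 were higher in both Irf8KO libraries than in both WT pristane libraries. The pristane groups overlapped for S100a9 and Csf3r. Il1r2 was lower in Irf8KO pristane, at 170 and 107 FPKM against 212 and 321 FPKM in WT pristane. The 7 genes summed to 154 FPKM in WT PBS, 16381 and 14600 FPKM in WT pristane and 45421 and 23273 FPKM in Irf8KO pristane. FPKM are shares of a library, so every gene is read against this changing total. Median-ratio scaling and quantile normalization left the sign of all 10 genes as it was in each comparison. Mast cell markers, with 2.26 to 4.38 FPKM in the 4 pristane libraries, did not separate the pristane groups, and red blood cell genes summed to 177 FPKM in WT PBS and 0.71 to 54.7 FPKM after pristane. Large peritoneal macrophage markers summed to 2126 FPKM, then 386 and 212 FPKM, then 1132 and 1752 FPKM, an order of groups that none of the 10 T cell genes had. Not all of these markers had the order of their sum. Timd4 stood at 26.9 FPKM in WT PBS, 0.676 and 0.838 FPKM in WT pristane and 0.0957 and 0.552 FPKM in Irf8KO pristane. For Lyz1 the pristane groups overlapped, and Gata6 and Emr1 were highest in Irf8KO pristane. Selp in WT PBS lay between the Irf8KO libraries.

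**Figure D4:**
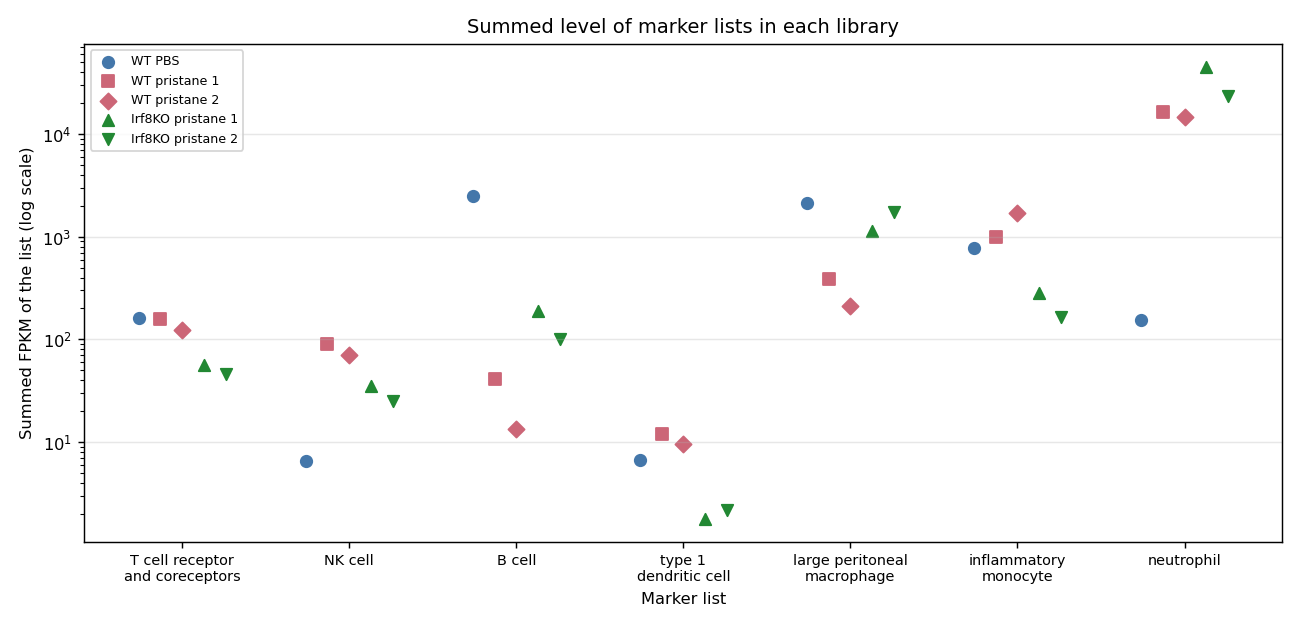
Summed FPKM of the 10 T cell genes and of 6 marker lists (vertical axis, log scale) by list. Each symbol is 1 library. The T cell, natural killer cell, type 1 dendritic cell and inflammatory monocyte sums are lower in both Irf8KO pristane libraries than in both WT pristane libraries, and the B cell, large macrophage and neutrophil sums are higher.

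Summed over the 10 genes, the level was 162 FPKM in WT PBS, 159 and 124 FPKM in WT pristane and 56.8 and 45.9 FPKM in Irf8KO pristane. The sums in WT PBS and WT pristane replicate 1 differed by 3.1 FPKM, although Cd4 stood lower and both CD8 chains stood higher in the latter. No gene of the 10 was listed at 0 in any library. Under 1 FPKM stood only Cd8a in both Irf8KO libraries and Cd4 and Tcf7 in Irf8KO pristane replicate 2. In WT PBS the order from the highest level was Cd3g, Cd3d, Cd3e, Lck, Thy1, Il7r, Cd4, Tcf7, Cd8b1 and Cd8a. Of these neighbours Cd3d, Cd3e and Lck lay within 1.35 FPKM of each other, less than the gap between the WT pristane libraries for each of these genes. In WT pristane Cd8b1 came above Cd4 and Tcf7 in both libraries, and Cd4 or Tcf7 came last.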

How the data were processed

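RNA from peritoneal lavage cells was sequenced by Smart-seq2, per the labels' protocols, and 5 libraries were analysed. Per the submitters' processing notes, the tools were TopHat2 2.0.10, BWA, Cuffnorm and Cufflinks 2.2.1, in no stated order. No source used here gives the genome build. The authors deposited 1 table of FPKM values for 22815 symbols. It is titled as counts, but its values are not whole, and 27 symbols read as dates. FPKM divide by transcript length and library total, so an abundant class of transcripts lowers all others.

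Levels are the deposited FPKM. Changes were fitted with limma 3.58.1 in R 4.3.3 on log2(FPKM + 1), with 3 group means over all 5 libraries, a mean-variance trend and a 2-sided Benjamini-Hochberg threshold of 0.05 over the 11117 genes that reached 1 FPKM in any library. Log2 changes on this scale understate those of low genes. The script was tested on simulated data. Fragments were estimated from steps between low values, where 62.1% to 80.7% came within 0.15 of a whole number, too few for a count test. The 10 genes and the lists were chosen with earlier results of these data known. From each list, up to 3 genes of highest mean level and every gene past the threshold were named, plus the 8 nearest to the CD3 profile. Some genes that this rule names are not reported here. Promoters came from RefSeq (GRCm38.p6). Alternatives were other pseudocounts, filters, scalings, fits and left-out libraries.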

Additional observations from a re-analysis of the deposited data

How the results depend on the processing

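Of 340 log2 changes of the 10 genes under alternative settings, 336 kept their direction. The 4 that turned were all in WT pristane against WT PBS when a WT pristane library was left out: the range over left-out libraries was −0.34 to 0.0085 for Cd3e, −0.68 to 0.28 for Lck, −0.42 to 1.24 for Il7r and −0.58 to 0.05 for Thy1. In Irf8KO pristane against WT PBS, 2 of the 10 passed the threshold. The number was 0 with a pseudocount of 0.1, 0 without a filter on low values, 1 without the trend, 0 with the replicate block, and 0 to 0 when 1 pristane library was left out. Between the pristane groups it went from 0 to 2 with a filter of 1 FPKM in 2 libraries and to 2 with the 4 pristane libraries alone, and in WT pristane against WT PBS from 0 to 1 with that filter. Over all genes, the 3 passing between the pristane groups became 0 with a pseudocount of 0.1 or no filter, 457 with the filter of 2 libraries, 40 without the trend, 431 with the 4 pristane libraries alone and 0 in each fit without 1 pristane library (limma, 1005 to 2529 at an unadjusted p under 0.05). The 949 of Irf8KO pristane against WT PBS became 623 without the trend. In each fit without 1 pristane library 0 genes passed in that comparison, and 0, against 1183 with all libraries, in WT pristane against WT PBS (limma, 2242 to 4013 and 2755 to 3755 at an unadjusted p under 0.05). Each fit without 1 pristane library, like the replicate block, had fewer residual degrees of freedom than the 2 of the main fit. The cause of the counts of 0 was not tested.

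Replicate numbers paired libraries by number only: deviations of same-numbered libraries had a correlation of 0.045 over 11117 genes, and with the replicate block 0 genes passed in each comparison (3450, 2096 and 3443 at an unadjusted p under 0.05, limma). Without the WT PBS library no comparison with PBS is left. Depth limits Cd8a, Tcf7, Cd4 and Cd8b1, with an estimated 2.0, 4.5, 7.8 and 8.3 fragments on the longest coding transcript in Irf8KO pristane replicate 2. With 1 or 2 libraries a group, a difference that missed the threshold is not shown to be absent.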
